A study of Mus musculus with 11 samples.

Results

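Long domains of the autosomal contact map of mouse Th1 cells, those of 1.2 Mb or more, are described here. They were chosen by measured values: the ensemble map was cut into 50 kb bins and balanced, and domains were taken between local minima, with a prominence of 0.1 or more, of the log2 mean contacts between the 500 kb on either side of a bin border. Of 3262 domains on chromosomes 1 to 19, with a median length of 650 kb, 399 were this long. They covered 636.5 Mb, or 25.7% of the autosomes, with a median length of 1400 kb and a range of 1200 to 8400 kb. The 1531 domains of 400 to 800 kb, which covered 925.35 Mb, or 37.4% of the autosomes, serve as the comparison.

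In Hi-C, cut DNA ends that are neighbours in nuclear space are ligated and sequenced, and 1 contact stands for 2 ligated fragment ends. The study mapped contacts in 10 single Th1 cells, in a pool of single cells made by the authors, and in an ensemble of many cells. Th1 cells, a type of CD4-positive helper T cell, activate macrophages through interferon gamma. Spleen cells of male C57BL/6 mice, the source for every map, were stimulated with anti-CD3 at 1 µg/ml for 3 days in 5% serum, sorted on CD4 beads and grown on with IL-2 at 20 ng/ml. The enzyme was Bgl II for the ensemble and 9 cells but Dpn II, which has a shorter recognition site, for cell 8. No label says that cells came from separate mice or cultures, so p-values measure the spread between these cells only.

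Topologically associating domains are stretches of chromosome whose parts touch each other more than they touch the flanking sequence. In mammals many of their borders are held by CTCF and by cohesin, the ring complex that extrudes chromatin loops. On a larger scale, chromatin divides into an active A compartment, rich in genes, and an inactive B compartment, and each prefers contacts with its own kind, also between chromosomes. Here class 1 and class 2 were read from the first eigenvector of each chromosome's ensemble map at 1 Mb. Class 1 was the side with more fragment ends. That choice of side makes fragment-end density higher in class 1 in part by construction. Whether class 1 and class 2 match A and B on every chromosome was not checked.

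Single cells cut with Bgl II had a depth of 11156 to 30665 contacts, while cell 8 had 12225, the pool 2294791 and the ensemble 51834382. The pool includes all contacts of the 9 Bgl II cells, and it was used without them, which left 2119836 contacts. The single cells and this remainder of the pool are maps that the choice of domains did not use. Values of the ensemble, which chose the domains, are given as a description only.

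Not every long domain was a long stretch of measured chromatin. Bins with a row sum under 0.2 of the median were left out, and these made up 11.5% of the bins in long domains, against 2.05% in domains of 400 to 800 kb. In 44 of the 399 long domains, against 7 of the 1531 others, the insulation value was undefined over some stretch, so that a border there could not have been found. The 5 longest were all of this kind. They were chr12:17250001-25650000 (mm9, 8400 kb), with 134 left-out bins, chr7:38700001-47000000 (8300 kb), with 150, chr7:6300001-12750000 (6450 kb), with 96, chr7:20250001-24650000 (4400 kb), with 75, and chr8:18950001-23250000 (4300 kb), with 63. Among the 46 domains of 2 Mb or longer, 27 held an undefined stretch and 43.7% of all bins were left out. For these the label of a long domain goes beyond what the map measured. Without any left-out bin inside or at a border, 315 long domains remained, up to 2850 kb, and 1264 domains of 400 to 800 kb. All values below leave out contact ends in left-out bins.

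Long domains lay in class 1 more often than domains of 400 to 800 kb did in these maps. Class 1 held most of the length of 181 of the 399 long domains, or 45.4%, and class 2 that of 216, while 2 had no class. Of the domains of 400 to 800 kb, 484, or 31.6%, were mostly in class 1, 1036 mostly in class 2 and 11 in neither. With classes read from the pool without the 9 cells, the shares in class 1 were 50.9% and 36.4%. Ensemble and pool classes agreed in 93.9% of 1 Mb bins. Without left-out bins, the ensemble shares were 47.9% and 33.7%. By length, the class 1 share was 14.4% under 400 kb, 31.6% at 400 to 800 kb, 38.9% above 800 kb and below 1.2 Mb, 46.1% at 1.2 to below 1.5 Mb, 43.8% at 1.5 to below 2 Mb and 45.7% at 2 Mb or more. The share was thus higher in each step up to 1.2 Mb and nearly level above it. Classes changed inside 139 of the 399 long domains and inside 187 of the 1531 others. Classes were read in 1 Mb bins, so every long domain crosses a bin edge. A shorter domain can lie within 1 bin, where no change is possible, so the counts of class changes depend in part on length. These counts come from maps of domains, not from replicates, and carry no test.

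**Figure D1:**
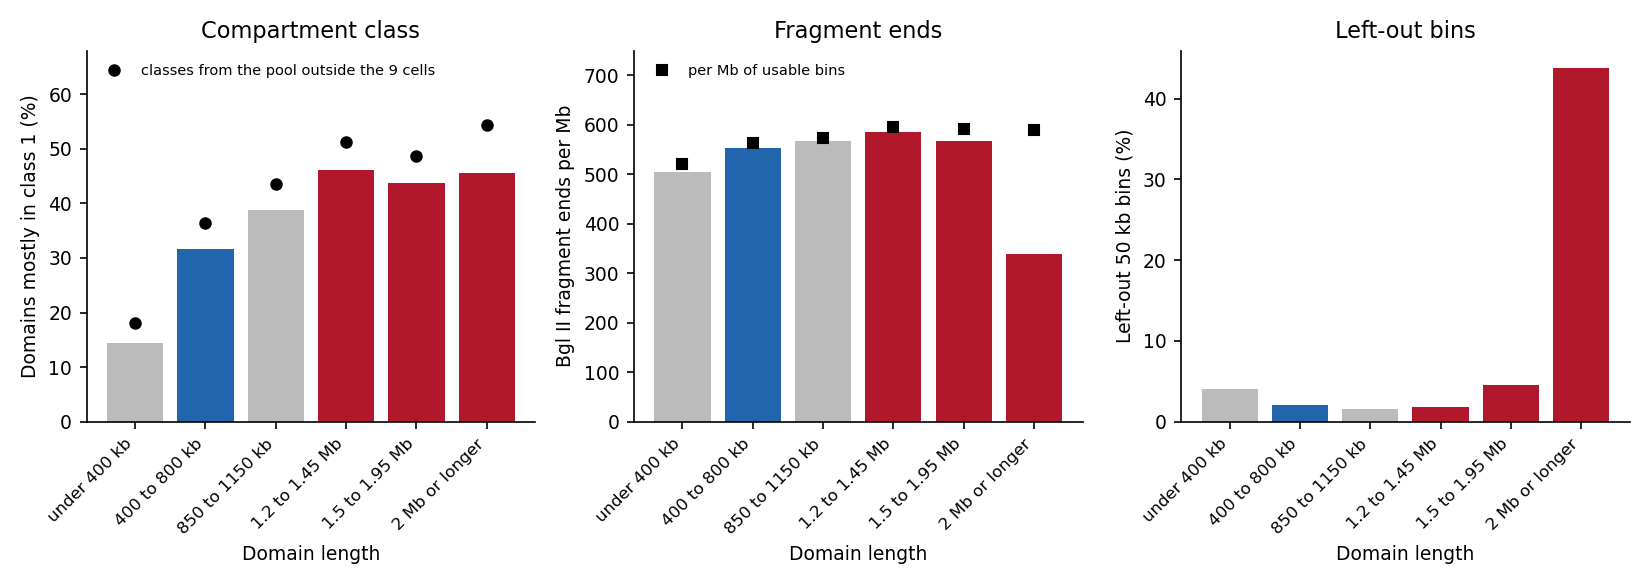
Bars show, by domain length, the percentage of domains mostly in class 1 of the ensemble (left), Bgl II fragment ends per Mb (middle) and the percentage of 50 kb bins left out (right), with the long domains in red and those of 400 to 800 kb in blue. Points show class shares from the pool without the 9 cells and fragment ends per Mb of usable bins; the class 1 share was 45.7% at 2 Mb or more, where 43.7% of bins were left out.

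Fragment-end density depended on whether left-out bins were counted. Long domains held 528 Bgl II ends seen in the ensemble per Mb, against 554 in domains of 400 to 800 kb. Per Mb of usable bins the order was the other way round, with 593 in long domains and 562 in the others. The same order held within both classes, with 637 against 616 per usable Mb in class 1 and 555 against 536 in class 2. Across single long domains the density per usable Mb had quartiles of 539 and 633, and the range ran from 295 to 860.

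At the threshold the values did not follow the overall difference. The 51 domains of exactly 1.2 Mb were in class 1 in 33.3% of cases, and the 62 domains that were 1 bin of 50 kb shorter in 46.8%. In the pool without the 9 cells, their trans shares were 20.4% and 21.3%, and their inside contacts were 1.05 and 1.10 times the expected number.

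Borders of long domains had a greater prominence in the map that defined them. Prominence is also the value by which the domains were cut, so its link with length is in part built in. The median prominence of a border was 0.702 for long domains and 0.306 for domains of 400 to 800 kb. Long domains were also not uniform inside. At a prominence of 0.05, 255 of the 399, or 63.9%, held at least 1 weaker minimum, against 424, or 27.7%, of the domains of 400 to 800 kb. Per Mb the weaker minima were nearer each other in number, at 0.624 in long domains and 0.560 in the others. With borders called at 0.05, 184 domains of 1.2 Mb or longer were left.

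Most single cells had fewer contacts across these weaker minima. Across the 397 weaker minima inside long domains, the 9 Bgl II cells had 0.940 ± 0.0940 times the expected contacts across the minimum and 1.06 ± 0.0662 times those within either side (SD, n = 9). The log2 ratio of across over within was -0.18 ± 0.14 (SD, n = 9), between -0.42 and 0.021, and below 0 in 8 of 9 cells. It was -0.20 in the pool without these cells and -0.31 in the ensemble, but 0.29 in cell 8. Most of the maps not used to find the weaker minima thus had fewer contacts across than within, with no test run.

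Contact ends in long domains had a partner on another chromosome, a trans contact, more often than those in domains of 400 to 800 kb. The trans share in long domains was 7.66% in the lowest of the 9 Bgl II cells, 19.1% in the median cell and 26.2% in the highest, and in domains of 400 to 800 kb it was 6.76%, 17.5% and 25.6%. Cells differed from each other far more than length groups did within a cell. Within every one of the 9 cells the long domains had the higher share, by 0.588 to 1.55 points. The mean difference was 0.953 ± 0.332 points (SD, n = 9), with an exact sign-flip permutation p of 0.00391, two-sided, the smallest that 9 cells allow, and 0.0117 after Benjamini-Hochberg adjustment over the 9 results tested. The means were 18.6% ± 6.74 in long domains and 17.6% ± 6.68 in the others (SD, n = 9). Cell 8 differed by 0.672 points and the pool without the 9 cells by 0.874 points (20.9% against 20.0%). In the ensemble, long domains had the lower share, 50.1% against 50.4%. The difference missed the threshold with borders of prominence 0.2 or more (0.462 points, adjusted p = 0.111 by the exact permutation test) and without balancing (0.579 points, adjusted p = 0.114 by the same test). With a 250 kb window, which left 68 long domains, it was 2.48 points (adjusted p = 0.0176, exact permutation test).

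Class moved with the trans share. Domains of class 1 had higher trans shares than those of class 2 in both length groups, and long domains were more often of class 1. Among class 1 domains the cells averaged 21.1% ± 7.14 in long domains and 20.4% ± 7.08 in those of 400 to 800 kb (SD, n = 9). That difference, 0.654 ± 1.05 points, was above 0 in 6 of 9 cells, and its adjusted p was 0.158 by the exact permutation test. Among class 2 domains the averages were 16.0% ± 6.41 and 16.0% ± 6.52, and the difference, 0.0534 ± 0.607 points, was above 0 in 5 of 9 cells, with an adjusted p of 0.793 by the same test. In the pool without the 9 cells the shares were 23.7% and 23.5% in class 1 and 17.9% and 17.9% in class 2. The class 1 difference did not exceed the class 2 difference beyond the spread of cells (0.6003 ± 1.48 points, exact permutation p = 0.266, n = 9). A domain's class is that of most of its length, so class was not held fully constant. In class 1, 67 of 181 long domains and 87 of 484 others held both classes. In class 2, 70 of 216 long domains and 89 of 1036 others did. Within the classes so defined, no difference by length passed the test in these cells. The class 1 difference did pass it for domains of 1 Mb or more (0.720 points, adjusted p = 0.0293), with borders of prominence 0.2 or more (1.34 points, adjusted p = 0.0117) and with cis contacts under 50 kb left out (1.05 points, adjusted p = 0.0211), all by the exact permutation test.

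Trans partners of long domains lay less often in class 2. The share of trans partners in class 2 was 42.6% in the lowest cell, 47.7% in the median cell and 52.3% in the highest for long domains, and 44.5%, 53.2% and 56.4% for domains of 400 to 800 kb. The difference was -5.26 ± 2.08 points and below 0 in 9 of 9 cells (adjusted p = 0.0117, exact permutation test, n = 9). It was -5.11 points in the pool without the 9 cells, -4.997 in cell 8 and -1.66 in the ensemble. Within class 1 the cells averaged 33.6% ± 4.65 for long domains and 36.5% ± 5.69 for the others, and within class 2 they averaged 66.5% ± 5.94 and 65.4% ± 3.98 (SD, n = 9). The class makeup of the length groups moved with this result, and its part was not tested. With borders of prominence 0.2 or more the difference was -1.02 points and missed the threshold (adjusted p = 0.111, exact permutation test, n = 9).

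**Figure D2:**
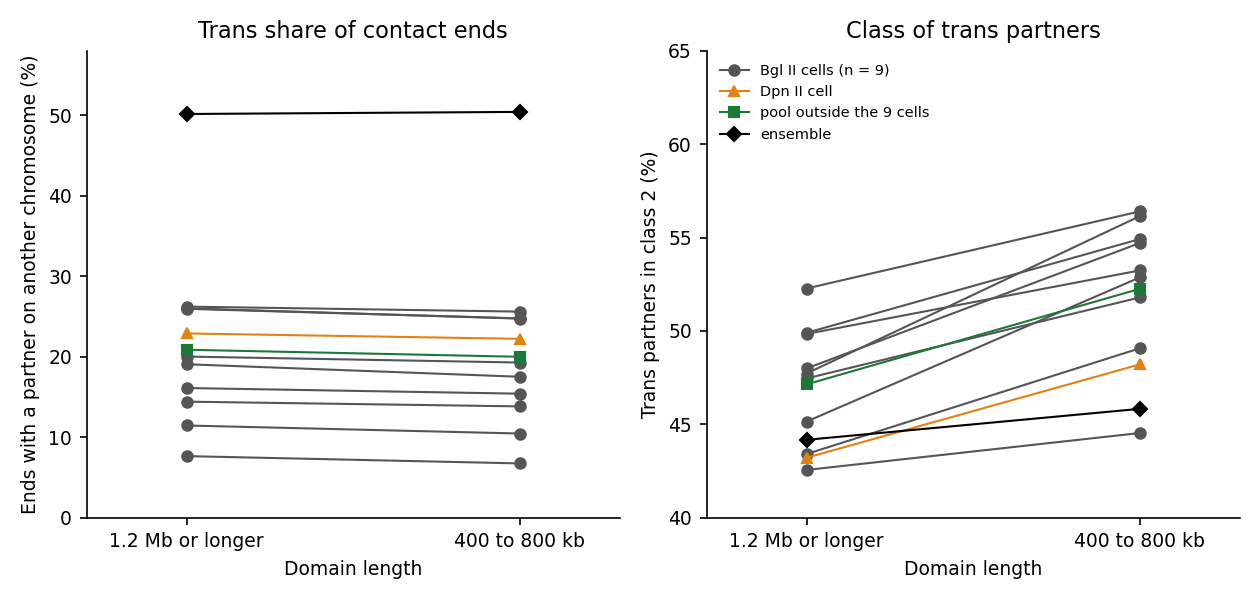
Each line joins the values of 1 map for domains of 1.2 Mb or longer (left) and of 400 to 800 kb (right): the percentage of contact ends with a partner on another chromosome, and the percentage of trans partners in class 2 (axis starting at 40%). In the 9 Bgl II cells every line is higher on the left in the first panel and lower on the left in the second.

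Partners in cis were nearer for ends in long domains. Over the 9 Bgl II cells, partners under 50 kb away made up 19.5% ± 2.43 of ends in long domains and 18.7% ± 2.46 in domains of 400 to 800 kb (SD, n = 9), and the long domains were higher in 9 of 9 cells. Partners at 50 to 400 kb made up 14.1% and 13.2%, with long domains higher in 8 of 9 cells. Partners at 400 kb to 1.2 Mb made up 7.07% and 6.51%, with long domains higher in 9 of 9. Beyond the length of most domains the order turned. Partners at 1.2 to 10 Mb made up 12.1% in long domains and 13.5% in the others, and those over 10 Mb made up 28.7% and 30.5%, with long domains lower in 9 of 9 cells each time. These shares were not tested one by one.

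Long domains hold the whole range of distances from 400 kb to 1.2 Mb, of which shorter domains hold only the nearer part. Contacts were set against the number expected from the same map's autosomal contacts, per possible pair of fragment ends at the same distance in steps of 10 kb. At 400 kb to 1.2 Mb, inside contacts of long domains were 1.17 times expected in the lowest Bgl II cell, 1.33 times in the median cell and 1.42 times in the highest. Pairs in different domains at these distances were 0.849, 0.880 and 0.907 times expected. The groups did not overlap, but both were set against 1 expectation that includes their own contacts, so values above and below 1 go together. Domains were cut where the ensemble had few contacts between flanks, so this comparison asks only whether the cells share those domains. The ratio was 1.48-fold, with a log2 of 0.57 ± 0.12 (SD, n = 9), above 0 in 9 of 9 cells (adjusted p = 0.0117, exact permutation test). In log2, it was 0.60 in the pool without the 9 cells, 0.75 in cell 8 and 0.70 in the ensemble. Each Bgl II cell had 153 to 324 such inside contacts over all long domains, so no single domain has a usable value at this distance in 1 cell. The excess was not particular to long domains. Long domains averaged 1.299 ± 0.0807 times expected, against 1.46 ± 0.204 times in domains of 400 to 800 kb and 1.40 ± 0.131 times in those above 800 kb and below 1.2 Mb, each over the part of these distances that it holds (SD, n = 9). In the pool without the 9 cells, the value was 1.32 times in long domains, against 1.42 times at 400 to 800 kb and 1.40 times in the lengths between. These differences by length were not tested. With a 250 kb window, 68 long domains were left and the log2 was 0.19 (adjusted p = 0.223, exact permutation test, n = 9).

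At 50 to 400 kb, the range that both length groups hold, inside contacts did not differ between them beyond the spread of cells. Inside contacts were 1.06 ± 0.0340 times expected in long domains and 1.08 ± 0.0159 times in domains of 400 to 800 kb (SD, n = 9). The log2 ratio of long over the others was -0.030 ± 0.058, between -0.13 and 0.058, and above 0 in 3 of 9 cells (adjusted p = 0.216, exact permutation test). It was 0.033 in the pool without the 9 cells, 0.15 in cell 8 and 0.25 in the ensemble. The sign and the call depended on the borders and on how possible pairs were counted. With borders of prominence 0.2 or more, the log2 ratio was -0.15 and below 0 in 9 of 9 cells (adjusted p = 0.0117, exact permutation test). Counted per pair of 10 kb positions, with no regard to fragment ends, the log2 ratio was 0.13 and above 0 in 9 of 9 cells (adjusted p = 0.00879, exact permutation test). Weighted by the contact ends of the pool in each position, it was -0.11 and below 0 in 9 of 9 cells (adjusted p = 0.00879, the same exact permutation test). No order of the length groups in inside contacts can be read at these distances.

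These levels differed more between classes than between lengths. In the pool without the 9 cells, inside contacts at 50 to 400 kb were 1.202 times expected in long class 1 domains and 1.23 times in class 1 domains of 400 to 800 kb. In class 2 they were 0.955 and 0.951 times. In the ensemble, class 1 domains stood at 1.69 and 1.65 times and class 2 domains at 0.674 and 0.618 times. Over the 9 Bgl II cells, class 1 domains averaged 1.205 ± 0.0605 times if long and 1.302 ± 0.0678 times at 400 to 800 kb (SD, n = 9). Class 2 domains averaged 0.885 ± 0.0578 and 0.936 ± 0.0364 times. The means of the cells were thus lower for long domains within both classes, unlike class 2 of the pool and both classes of the ensemble. Class makeup moved with the comparison over all domains, and its part was not tested.

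Contacts fell with distance a little more steeply inside long domains, but the call did not hold under several other settings. The slope on log scales at 50 to 400 kb lay between -0.931 and -0.640 in long domains, with a median of -0.855, and between -0.866 and -0.585 in domains of 400 to 800 kb, with a median of -0.792. The difference was -0.0701 ± 0.0608 (SD, n = 9) and below 0 in 8 of 9 cells (adjusted p = 0.0264, exact permutation test). It was -0.0496 in the pool without the 9 cells (-0.763 against -0.714), -0.0446 in the ensemble and 0.0367 in cell 8. The call was lost when cell 1, 2, 3, 4, 9 or 10 was left out, where 8 cells allow no exact permutation p under 0.00781. The difference then stayed between -0.0720 and -0.0619, and its adjusted p was 0.0527 each time (exact permutation test, n = 8). By the same exact permutation test over 9 cells it also missed the threshold with long domains from 1 Mb (adjusted p = 0.0854), a 250 kb window (0.0904), no balancing (0.169), all shorter domains as the comparison (0.105), distances of 100 to 400 kb (0.141) and cells thinned to 11156 contacts (0.0703). In class 1 the cells averaged -0.842 ± 0.114 in long domains and -0.688 ± 0.0736 in the others (SD, n = 9). In class 2 they averaged -0.815 ± 0.107 and -0.826 ± 0.127. Whether the slope difference itself differed between classes was not tested.

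**Figure D3:**
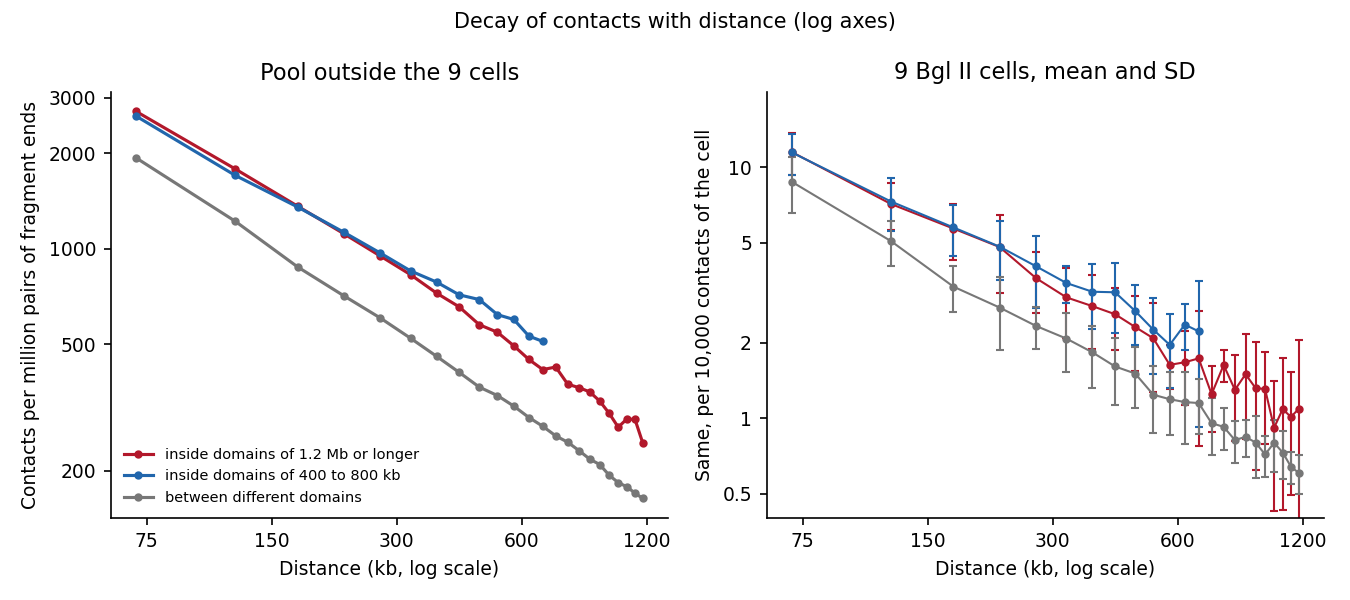
Contacts per 1000000 possible pairs of Bgl II fragment ends against distance (both axes logarithmic) in the pool without the 9 cells, and the mean and SD of the 9 Bgl II cells scaled to 10000 contacts a cell; curves are contacts inside long domains, inside domains of 400 to 800 kb (up to 700 kb, since few of them hold longer distances) and between different domains. In the pool, long domains held 1.40 times the between-domain value at 50 to 100 kb and 1.58 times at 500 to 550 kb, and domains of 400 to 800 kb held 1.35 and 1.80 times.

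The excess of inside over between-domain contacts stayed along the whole length followed. In the pool without the 9 cells, inside contacts of long domains in the last 50 kb step before 1.2 Mb were 244 per 1000000 possible pairs, against 163 between domains, a ratio of 1.49. At 50 to 100 kb they were 2716 and 1938, a ratio of 1.40. In domains of 400 to 800 kb the ratio was 1.35 at 50 to 100 kb and 1.85 at 650 to 700 kb, a distance that only the longer of these domains hold.

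The contrast between inside contacts and those that cross the border of the same domains was greater for long domains in most cells, but the call did not hold under several settings. Inside over crossing contacts at 50 to 400 kb had a ratio of 1.36 in the lowest cell, 1.63 in the median cell and 2.02 in the highest for long domains, and of 1.28, 1.48 and 1.58 for domains of 400 to 800 kb. The log2 ratio of the length groups was 0.18 ± 0.18 (SD, n = 9), a 1.13-fold difference, above 0 in 8 of 9 cells (adjusted p = 0.0352, exact permutation test). It was 0.15 in the pool without the 9 cells, 0.23 in cell 8 and 0.081 in the ensemble. In that pool the inside over crossing ratio was 1.75 against 1.67 in class 1 and 1.42 against 1.29 in class 2. Its adjusted p was above 0.05, at up to 0.0703, when any 1 cell other than cell 5 was left out, with log2 values between 0.14 and 0.19 (exact permutation test, n = 8). With borders of prominence 0.2 or more, which gave 752 long domains and 741 of 400 to 800 kb, the sign turned (-0.052, adjusted p = 0.206, exact permutation test). The call was also lost without balancing (0.070, above 0 in 4 of 9 cells, adjusted p = 0.574), at 1.5 Mb or more (0.12, 0.246), with a 250 kb window (0.31, 0.119), against all shorter domains (0.14, 0.0967) and at 100 to 400 kb (0.18, 0.0703), all log2 values with adjusted p by the exact permutation test.

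**Figure D4:**
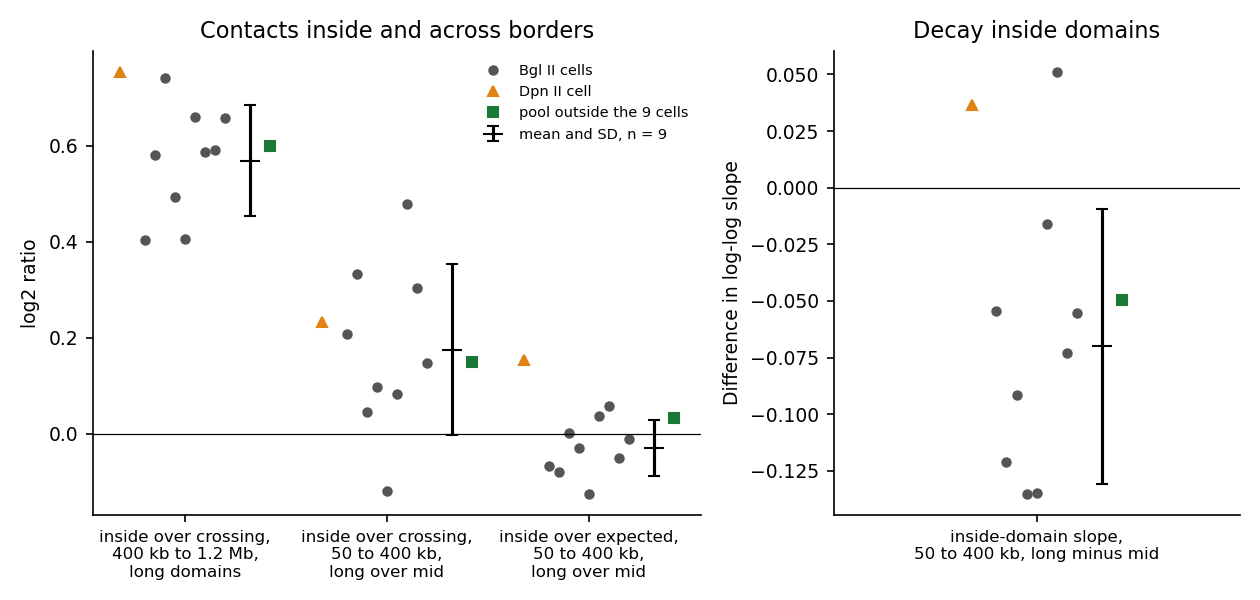
Points are the 9 Bgl II cells, bars their mean and SD, the triangle is cell 8 and the square the pool without the 9 cells; the left panel shows log2 ratios of inside over between-domain contacts and of the length groups, and the right panel the difference in log-log slope of contacts with distance. All 9 cells lie above 0 for inside contacts at 400 kb to 1.2 Mb, 8 of 9 for the border contrast, 3 of 9 for inside contacts at 50 to 400 kb, and 8 of 9 lie below 0 for the slope.

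How often a fragment end was seen did not differ between the length groups beyond the spread of cells with these domains, but did with others. Contact ends per Bgl II fragment end averaged 0.0289 ± 0.0102 in long domains and 0.0288 ± 0.0102 in domains of 400 to 800 kb (SD, n = 9). The log2 ratio was 0.0083 ± 0.024, above 0 in 7 of 9 cells (adjusted p = 0.369, exact permutation test). In cell 8, cut with Dpn II but counted here per Bgl II end, it was 0.11. It was 0.047 in the pool without the 9 cells and 0.21 in the ensemble. By the same exact permutation test it passed the threshold with long domains from 1 Mb (0.020, adjusted p = 0.0281) and without balancing (0.030, adjusted p = 0.0234). It passed in the other direction with a 250 kb window (-0.095, below 0 in 9 of 9 cells, adjusted p = 0.0176, exact permutation test).

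In a single cell, most long domains were caught by at least 1 inside contact of 50 kb or more. Among the 9 Bgl II cells, such a contact was found in 64.9% of the 399 long domains in cell 4, the lowest, and in 90.5% in cell 1, the highest, with a mean of 78.7% ± 7.88 (SD, n = 9). Among domains of 400 to 800 kb the mean was 37.3% ± 9.03. A longer domain holds more possible pairs, so these shares rest on unequal numbers of pairs. Per Mb of domain there were 1.36 ± 0.436 inside contacts in long domains and 0.912 ± 0.315 in the others. Possible pairs per Mb also rise with domain length, so the rate per Mb does not correct for them. Set against possible pairs at 50 to 400 kb, the length groups did not differ beyond the spread of cells, as given above. A contact of 400 kb or more was found inside 155 ± 28.0 long domains a cell (SD, n = 9). Of the Bgl II cells, cells 1 and 4 also had the highest and lowest counts of inside contacts in long domains, 1370 and 534. In cell 8, cut with Dpn II, 63.2% of long domains had an inside contact, against 21.2% of those of 400 to 800 kb, and the long domains held 486 such contacts.

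Across cells, 103 of the 399 long domains had an inside contact in all 9 Bgl II cells, against 8 of the 1531 domains of 400 to 800 kb. These counts, too, rest on unequal numbers of possible pairs. The median long domain had 20 inside contacts of 50 kb or more in the 10 cells summed, against 4 in the others. At the other end, 1 long domain and 124 of the others had none in any of the 9. Among the 315 long domains without left-out bins, 96 had a contact in all 9 cells and none had one in fewer than 4. In class 1 the median long domain had 27 inside contacts in the 10 cells summed, and in class 2 it had 14.

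**Figure D5:**
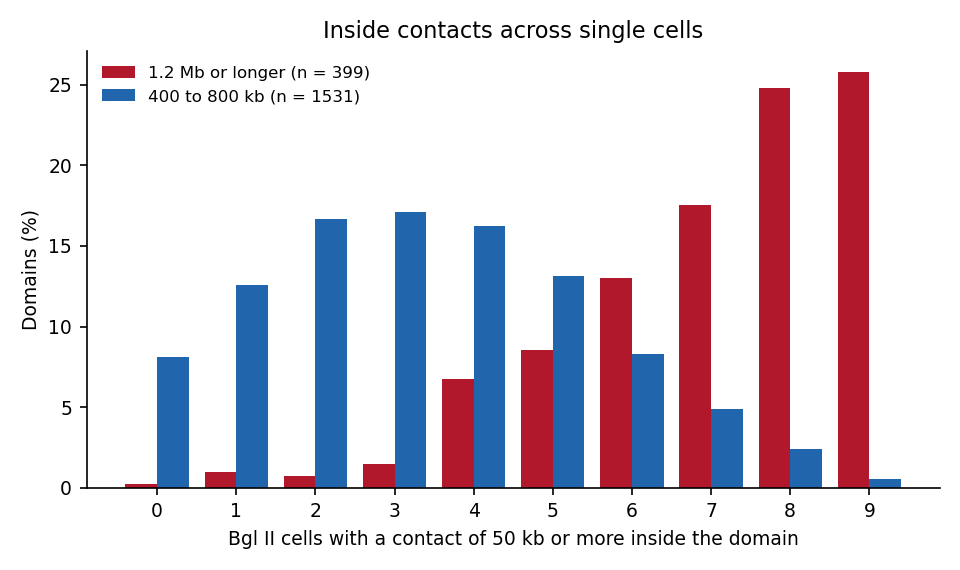
Bars show the percentage of domains of 1.2 Mb or longer (red, n = 399) and of 400 to 800 kb (blue, n = 1531) by the number of Bgl II cells, 0 to 9, in which at least 1 contact of 50 kb or more lay inside the domain. Long domains pile up at 8 and 9 cells, with 99 and 103 domains, and the others at 2 to 4.

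Long domains differed among themselves more than the length groups did. In the pool without the 9 cells their trans shares had quartiles of 17.0% and 24.0% around a median of 20.1%, against 16.2% and 22.6% around 18.9% in domains of 400 to 800 kb. Inside contacts at 50 to 400 kb had a median of 1.05 times expected with quartiles of 0.883 and 1.23, against a median of 1.00 and quartiles of 0.7998 and 1.24. Long domains spread less than the others in inside contacts, and each holds more contact ends, with a median of 2654 against 1019.

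The high and low ends of the trans share lay in different classes. The highest shares were those of chr12:115900001-117250000, at 38.7% (95% Wilson interval 34.2% to 43.3%), chr19:5050001-6400000, at 37.0% (35.2% to 38.8%), and chr8:124100001-126150000, at 34.5% (33.0% to 35.9%), all wholly of class 1. The domain on chromosome 12 had 15 left-out bins and only 445 contact ends. The lowest were chr1:120650001-122400000, at 10.9% (9.84% to 12.03%), chr6:92200001-94300000, at 11.1% (10.3% to 12.1%), and chr1:159450001-161100000, at 11.2% (10.2% to 12.3%), all wholly of class 2 with no left-out bin. Intervals cover counting error only. The 10 cells, summed, kept this order between the ends: 27.0%, 35.3% and 25.8% for the high domains and 8.16%, 10.97% and 12.2% for the low ones. For the domain on chromosome 12, however, the cells held only 37 contact ends, too few to place it.

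Inside contacts at 50 to 400 kb were most above expected, in the pool without the 9 cells, in the same domain of chromosome 12, at 2.11 times, but this was 17 contacts where 8.04 were expected and the cells held none. Next came chr10:21100001-22300000, with 161 contacts and 1.90 times, and chr3:105800001-107300000, with 298 and 1.86 times. That domain of chromosome 3 had no left-out bin and 3 weaker minima inside, and all 9 Bgl II cells held an inside contact of 50 kb or more. The lowest were chr17:39050001-40250000, at 0.488 times, and chr7:5100001-6300000, at 0.523 times, with 13 and 12 left-out bins. In chr3:55950001-57400000, at 0.592 times, no bin was left out and 104 contacts stood against 175.7 expected. No gene of these regions is named, as no annotation of the mm9 build was used here.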

How the data were processed

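The deposited files list, per the file headers, a chromosome and a position in bp for both ends of each contact, 1 line per contact, with no read number. Positions refer to build mm9, per the submitters' processing notes. Libraries were made from biotin-labelled junctions on streptavidin beads, cut with Alu I and amplified by PCR, per the labels' protocols. How reads were aligned and filtered is not given in the sources used here.

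From these positions the ensemble was balanced over 50 iterations on 50 kb bins, leaving out 3513 of 49453 bins under 0.2 of the median row sum. Insulation was undefined with under 0.25 of the bin pairs usable. Possible pairs were products of the numbers of distinct ensemble fragment ends (1316271 in all). Slopes came from Poisson regression with possible pairs as offset. A crossing contact at 50 to 400 kb had 1 end in a domain and 1 outside it. Each Bgl II cell gave 1 paired value. The test was an exact two-sided sign-flip permutation test over 9 cells, adjusted over 9 results at 0.05. The measures, but not the error rate of the test, were checked on simulated maps drawn from the ensemble, with and without planted changes. Cell 8, the pool and the ensemble had no test. Depth limits precision: the shallowest cell had 11156 contacts.

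The members, the comparison and the lists were chosen with earlier results of these data known. Regions named were the 5 longest and, of members with at least 100 contact ends in the pool without the 9 cells (all 399), the 3 highest and 3 lowest in trans share and in inside contacts over expected. Alternatives changed lengths, borders, window, balancing, bins, distances, classes, pair counts, depth and cells. Chromosome X was not analysed here. Scripts ran in Python 3.11.15 with scipy 1.17.1, numpy 2.4.6, matplotlib 3.10.9 and pandas 2.3.3.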

Additional observations from a re-analysis of the deposited data

How the results depend on the processing

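Of 196 values under alternatives, 146 kept direction and side of the threshold, 29 lost the call, 7 gained it and 14 changed sign. With borders of prominence 0.2 or more, the trans share difference was 0.462 points, that in class 1 1.34, that in class 2 -0.366, the class 2 share of trans partners -1.02, and the log2 values were -0.15 for inside contacts, -0.052 for the border contrast and -0.0090 for contact ends per fragment end. Without balancing, trans share differences were 0.579 points, -0.0928 in class 1, the slope difference -0.0846, the border contrast 0.070 and contact ends 0.030. With a 250 kb window, trans shares differed by 2.48 points, by 1.84 in class 1 and by 1.92 in class 2, the slope was -0.158, the border contrast 0.31, inside over between-domain contacts 0.19 and contact ends -0.095. With long domains from 1 Mb (712), trans shares differed by 0.720 points in class 1 and -0.101 in class 2, the slope by -0.0537, and contact ends by 0.020. With 1.5 Mb (167), the class 2 difference was -0.184, the border contrast 0.12 and contact ends -0.0083. Without left-out bins the class 2 difference was -0.0828, and with all 10 cells -0.0270. Against all shorter domains the slope was -0.0558 and the border contrast 0.14. At 100 to 400 kb they were -0.102 and 0.18. Without cis contacts under 50 kb the class 1 difference was 1.05. Inside contacts were 0.13 by 10 kb positions, 0.023 with cells thinned to 11156 contacts, and, in an alternative chosen after seeing the data, -0.11 by pool-weighted pairs; the thinned slope was -0.0633. Leaving out each Bgl II cell gave 0.878 to 0.999 points for trans shares, 0.419 to 0.853 in class 1, -0.0641 to 0.167 in class 2 (-0.0275 without cell 7 and -0.0641 without cell 10), -0.040 to -0.017 for inside contacts, -0.0852 to -0.0619 for slopes, 0.14 to 0.21 for the border contrast, 0.55 to 0.59 for inside over between-domain contacts, 0.0051 to 0.014 for contact ends and -5.67 to -4.87 for partner class. The cause of these changes was not tested. Single cells hold too few contacts for a value per domain.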

Other observations

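Long domains differed in number between chromosomes, and whether they did so beyond an even spread was not tested. Over all autosomes, 399 of 3262 domains were long domains. Chromosome 7 had 29 of them, covering 62.0 Mb, or 40.6% of its length, the highest share of the 19 autosomes, and 9 of these, together 33.3 Mb, held a stretch with undefined insulation. Chromosome 16 had 10, covering 14.4% of its length, the lowest share, and none with such a stretch. As a share of all domains of a chromosome, long domains ran from 7.63% on chromosome 16 to 16.9% on chromosome 7. Chromosome 1 had the most, 31 of its 284 domains (10.9%), and chromosome 19 had 8 of its 74 (10.8%), a nearly equal share. Of these, 18 on chromosome 1 and 2 on chromosome 19 were of class 1. On chromosome 10, 14 of 19 were of class 1. The class 1 share of all domains was not determined by chromosome, so these class counts have no base to be set against.

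In cell 8, cut with Dpn II, possible pairs of Bgl II ends are not the ends the enzyme made. This limits every value of cell 8 above that rests on Bgl II ends. Per pair of 10 kb positions, its inside contacts at 50 to 400 kb were 1.202 times expected in long domains and 0.970 times in domains of 400 to 800 kb. Its inside contacts at 400 kb to 1.2 Mb were 1.60 times expected in long domains, against 0.857 times between domains.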
